A study of Mus musculus with 6 samples.

Results

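The genes described here are 9 genes of the marrow niche stroma, chosen by name from the 12830 genes of the deposited table, in which all 9 have a row. Of these, 6 encode secreted or cell-surface products, namely Cxcl12, Kitl, Il7, Angpt1, Vcam1 and Lepr. The other 3, Ebf1, Ebf3 and Foxc1, encode transcription factors. The samples were primary bone marrow stromal cells (BMSCs) from mice that were 8 weeks old, sequenced as bulk RNA on day 2 of osteogenic induction. The 3 cKO libraries came from mice with the genotype Prx1;Rras2f/f, and the 3 FF libraries from Rras2f/f mice, so both groups carried the floxed Rras2 gene and both received the same induction. The Prx1 promoter is known to drive expression in limb mesenchyme and not in blood cells, and separate animals are not named in the labels for the replicates. The p-values therefore measure only the spread between these libraries, which may be technical.

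Niche stroma cells are the perivascular mesenchymal cells of marrow that are marked by the leptin receptor and by high Cxcl12. They hold blood stem cells and lymphoid progenitors in place and feed them with secreted factors, and some of them can become osteoblasts or adipocytes. In mice the transcription factors Foxc1, Ebf1 and Ebf3 are known to maintain these cells, and Ebf3 is known for keeping the marrow space free of bone.

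The 6 libraries held between 31934714 and 37561452 counts over the listed genes. Rras2, the deleted gene, had 26.7, 29.0 and 26.8 CPM in the cKO libraries, against 49.7, 50.1 and 44.7 CPM in the FF libraries. CPM here is the count scaled to library size with TMM factors, which is not corrected for gene length. The stromal markers Prrx1, Pdgfra and Pdgfrb averaged 223, 98.7 and 165 CPM in cKO and 246, 101 and 170 CPM in FF, while Thy1 averaged only 1.28 CPM in cKO and 1.19 CPM in FF. All 12 macrophage markers checked were also present, and they summed to between 25110 and 25870 CPM in cKO and between 23080 and 24420 CPM in FF. Most of that sum was Lyz2, which averaged 17130 CPM in cKO and 15800 CPM in FF. RNA of stromal and of macrophage genes was thus present in both groups, and in bulk RNA a change in the number of cells of a type and a change in RNA per cell cannot be told apart. FF replicate 1 stood apart in 12 interferon response genes, which summed to between 161 and 387 CPM in cKO, against 1517 CPM in that library and 377 and 217 CPM in FF replicates 2 and 3.

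In the cKO cultures 7 of the 9 niche genes rose and 0 fell relative to FF (quasi-likelihood test in edgeR, p adjusted by Benjamini-Hochberg over all genes, threshold 0.05). Of all genes tested, 4.84% passed in either direction, 2.10% as higher and 2.74% as lower. The 9 genes and the gene lists below were chosen with earlier results of these data known. Setting their counts beside these shares is therefore a description and not a test. The risers were Cxcl12, Lepr, Angpt1, Il7, Kitl, Ebf3 and Foxc1, with rises between 1.17-fold and 1.39-fold. Vcam1 and Ebf1 did not pass. The median log2 fold change of the 9 genes was 0.39, against 0.00 over all genes, and was 0.44 for the 6 secreted or surface genes. At an unadjusted p below 0.05, 1 member, Ebf1, was lower, where 8.81% of all genes were lower and 8.54% higher at that cut, and DESeq2 and limma-voom each called 0 members lower. DESeq2 called 7 members higher, where 2.76% of all genes passed as higher, and limma-voom called 5, where 1.38% passed as higher. In the authors' deposited table the same 7 of the 9 had an adjusted p below 0.05 and were higher. The share over all its genes was 2.76% as higher and 6.61% in either direction, and none of the 9 exceeded a 1.5-fold change there. The deposited values of the 9 genes nearly repeat the DESeq2 fit made here, with 848 genes called in each, and are not separate support. The rises of Cxcl12, Lepr, Angpt1, Kitl and Ebf3 stayed past the threshold with any 1 library left out, while those of Il7 and Foxc1 did not.

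**Figure D1:**
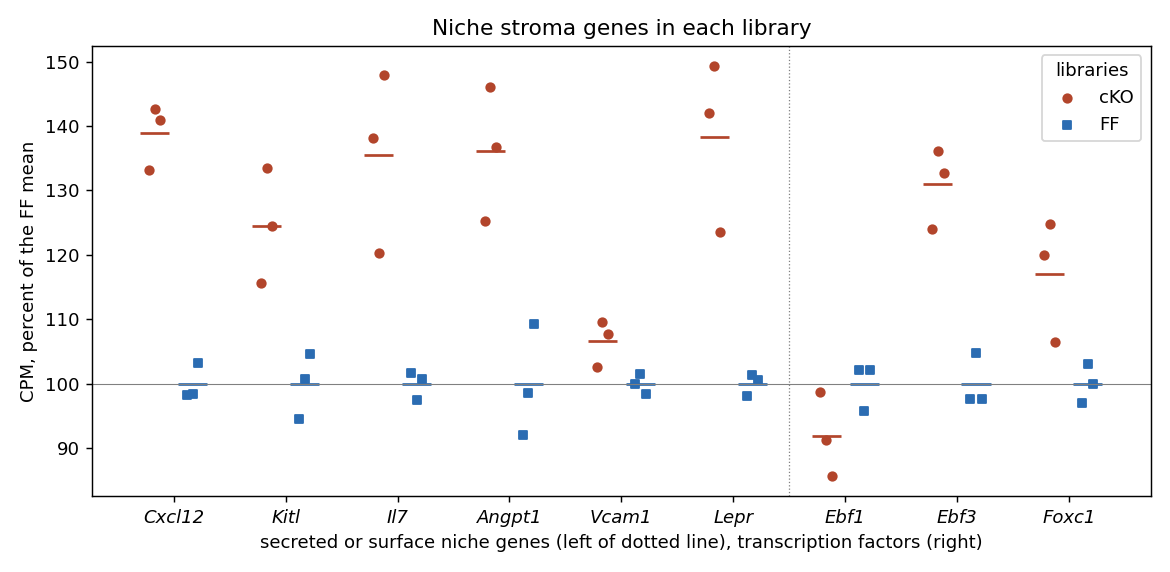
CPM of each of the 9 niche genes in each library, as a percent of the gene's FF mean; circles are the 3 cKO libraries, squares the 3 FF libraries and bars the group means. For 8 genes all cKO libraries lie above all FF libraries, and for Ebf1 the groups overlap.

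For 8 of the 9 genes every cKO library was above every FF library. Such a separation in that direction was found for 11.3% of all genes. Ebf1 was the only member of the 9 whose groups overlapped.

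Among the secreted factors, Cxcl12 encodes the chemokine that retains blood stem cells and B-cell progenitors in marrow through the receptor Cxcr4. The gene, ENSMUSG00000061353, lies on the plus strand of chromosome 6 from 117168535 to 117181367 (mm10, GENCODE M21). It had 4636, 4969 and 4910 CPM in cKO, against 3425, 3427 and 3597 CPM in FF. All cKO libraries were high, and the gap between the groups was wider than the range within either group. The log2 fold change was 0.47 ± 0.0508 (SE), a 1.39-fold rise (edgeR adjusted p = 9.98e-05). Cxcl12 made up between 0.464% and 0.498% of all counts in cKO and between 0.338% and 0.361% in FF. By count it ranked 11th, 11th and 9th among all genes in cKO replicates 1, 2 and 3, and 15th, 14th and 14th in FF replicates 1, 2 and 3.

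Kitl encodes stem cell factor, the ligand of the receptor Kit on blood stem and progenitor cells. The gene lies on the plus strand of chromosome 10 from 100015630 to 100100416. It had 309, 356 and 332 CPM in cKO, against 252, 269 and 279 CPM in FF. The lowest cKO library was replicate 1, which still exceeded the highest FF library. The log2 fold change was 0.32 ± 0.0557 (SE; edgeR adjusted p = 0.00449), the smallest rise among the called secreted or surface genes.

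Angpt1, the ligand of the Tie2 receptor of endothelial and blood stem cells, lies on the minus strand of chromosome 15 from 42424723 to 42676977. It had 58.9, 68.7 and 64.3 CPM in cKO, against 43.3, 46.3 and 51.4 CPM in FF, so both groups varied but did not overlap. The rise was 1.36-fold, with a log2 fold change of 0.44 ± 0.0738 (SE; edgeR adjusted p = 0.00289). An unlisted antisense gene, Gm17473, shares 737 exon bases with Angpt1. The strand setting of the counting is not known here, so reads of the pair cannot be told apart. The same holds for smaller antisense overlaps of 105 exon bases in Il7 and 61 in Vcam1.

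Il7, the cytokine that B-cell and T-cell progenitors need, was the lowest of the 9 genes. It lies on the minus strand of chromosome 3 from 7569994 to 7613760. It had 16.1, 14.0 and 17.2 CPM in cKO, against 11.8, 11.4 and 11.7 CPM in FF. The FF libraries were close together, whereas the cKO libraries varied more. In counts these were 564, 486 and 625 reads in cKO and 409, 430 and 376 reads in FF. The log2 fold change was 0.44 ± 0.0986 (SE; edgeR adjusted p = 0.0197). That call ended without cKO replicate 3 (adjusted p = 0.0922), without FF replicate 1, 2 or 3 (0.0530, 0.0945 and 0.0622), and with limma-voom (0.0511), though the log2 fold change remained between 0.37 and 0.52 over the removals.

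On the cell surface, Lepr, the leptin receptor that marks the perivascular stroma of adult marrow, lies on the plus strand of chromosome 4 from 101717404 to 101815352. It had 47.6, 50.1 and 41.5 CPM in cKO, against 32.9, 34.0 and 33.8 CPM in FF. The FF libraries were tight, and cKO replicate 3 was the lowest cKO library. The rise was 1.38-fold (log2 fold change 0.47 ± 0.0725 SE, edgeR adjusted p = 0.00163). Counts per gene do not separate the long signalling form of the receptor from its short forms.

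Vcam1, the adhesion molecule that binds the integrin of Itga4 and Itgb1 on blood cells, differed little. It lies on the minus strand of chromosome 3 from 116109949 to 116129688. It had 105, 112 and 110 CPM in cKO, against 102, 104 and 100 CPM in FF. The cKO libraries were above the FF libraries by a narrow margin. The log2 fold change of 0.09 did not pass (edgeR adjusted p = 0.318), and its unadjusted 95% interval ran from 0.3% lower to 14.1% higher in cKO. The upper end of that interval lies below the estimated rise of Kitl, 24.6%, the smallest among the called secreted or surface genes.

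**Figure D2:**
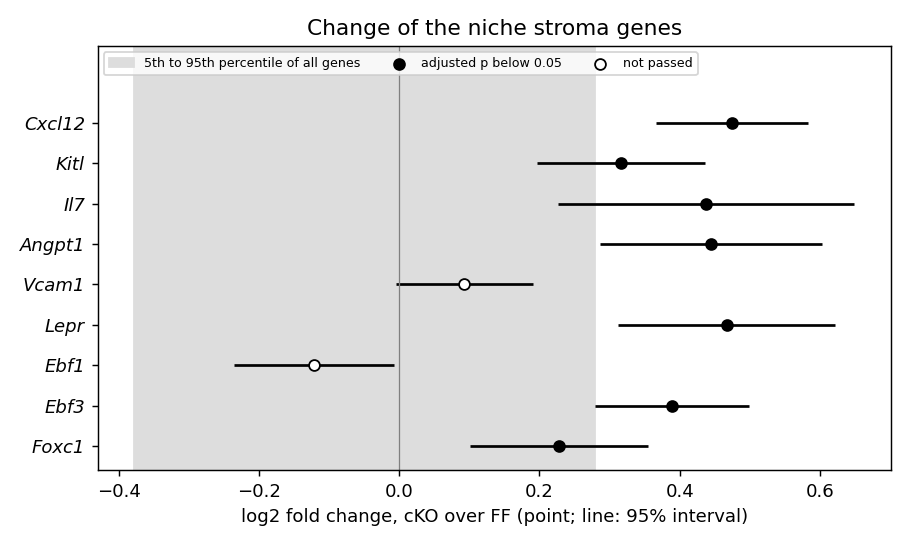
Log2 fold change of cKO over FF for each niche gene with its unadjusted 95% interval from the edgeR fit; filled points passed an adjusted p of 0.05, and the grey band holds the middle 90% of all genes. Cxcl12, Lepr, Angpt1, Il7, Ebf3 and Kitl have estimates above the band's upper edge of 0.28, while Foxc1, Vcam1 and Ebf1 lie inside it.

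Of the 3 transcription factors 2 rose, and Ebf1 had a negative fold change. Ebf3 had 111, 122 and 119 CPM in cKO, against 87.4, 93.7 and 87.4 CPM in FF. All 3 cKO libraries were high, and the 1.31-fold rise had a log2 fold change of 0.39 ± 0.0511 (SE; edgeR adjusted p = 0.000490). The gene lies on the minus strand of chromosome 7 from 137193673 to 137314445, and an unlisted antisense gene, Gm45278, shares 355 of its exon bases. Ebf1, a close relative that is also a B-cell lineage factor, lies on the plus strand of chromosome 11 from 44617317 to 45008091. It had 153, 141 and 133 CPM in cKO, against 158, 148 and 158 CPM in FF. cKO replicate 1 lay within the FF range and the other cKO libraries lay below it. The log2 fold change of Ebf1 was -0.12 with an unadjusted 95% interval of -0.24 to -0.01, and it did not pass (edgeR adjusted p = 0.245). Without cKO replicate 1 it was -0.18 and passed as lower (adjusted p = 0.0255).

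Foxc1 encodes a forkhead factor of Cxcl12-rich stroma. It lies on the plus strand of chromosome 13 from 31806633 to 31812476. It had 96.9, 101 and 86.0 CPM in cKO, against 78.3, 83.3 and 80.7 CPM in FF. The lowest cKO library, replicate 3, exceeded the highest FF library only slightly. Its log2 fold change was 0.23 ± 0.0593 (SE; edgeR adjusted p = 0.0409). The call ended without cKO replicate 1 or 2 (adjusted p = 0.0571 and 0.196), without FF replicate 1, 2 or 3 (0.140, 0.108 and 0.123), and with limma-voom (0.111).

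RefSeq windows of the 250 bases before the gene start (GRCm38.p6, the build of mm10) were at hand for Cxcl12, Ebf1, Ebf3, Foxc1, Kitl and Lepr. They are shown for Cxcl12, the most abundant of the 9, and for the Ebf pair, because Ebf3 rose and Ebf1 did not pass. Capitals mark matches to the EBF core CCCNNGGG, which was searched on both strands.
Cxcl12, chr6:117168285-117168534, plus strand: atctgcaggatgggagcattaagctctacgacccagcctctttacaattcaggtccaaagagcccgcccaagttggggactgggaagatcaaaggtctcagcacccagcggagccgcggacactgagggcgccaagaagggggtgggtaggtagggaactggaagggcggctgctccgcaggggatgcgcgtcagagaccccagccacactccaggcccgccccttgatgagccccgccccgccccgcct
Ebf3, chr7:137314446-137314695, minus strand: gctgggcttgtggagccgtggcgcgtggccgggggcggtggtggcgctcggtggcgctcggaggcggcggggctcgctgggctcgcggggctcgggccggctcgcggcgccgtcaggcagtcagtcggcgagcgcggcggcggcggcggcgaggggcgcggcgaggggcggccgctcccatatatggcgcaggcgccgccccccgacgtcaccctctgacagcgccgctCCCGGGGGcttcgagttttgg
Ebf1, first of its starts, chr11:44617850-44618099, plus strand: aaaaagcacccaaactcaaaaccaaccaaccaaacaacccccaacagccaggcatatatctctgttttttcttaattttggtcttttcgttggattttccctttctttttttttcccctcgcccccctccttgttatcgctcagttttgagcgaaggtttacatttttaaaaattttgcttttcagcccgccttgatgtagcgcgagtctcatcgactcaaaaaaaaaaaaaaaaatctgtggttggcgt
The Ebf1 window lies inside the GENCODE bounds of the gene, which begin further upstream. The Ebf3 window was 80.0% G or C, the Cxcl12 window 64.4% and the printed Ebf1 window 40.0%, while the window of the second Ebf1 start was 52.0%. The EBF core was found in the Ebf3 window, where it begins 21 bases before the start, and in none of the windows of the other 5 genes. Of 32851 promoter windows of this length, 11.8% hold it. The forkhead letters TGTTTAC and the NF-kB letters GGGNNTTCC were in none of the windows of the 6 genes, where 3.17% and 4.98% of all windows hold them. A match of letters describes the window and does not show binding.

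B-lineage RNA is given beside Ebf1 because B cells also express it. The B-lineage genes Cd79a, Ms4a1, Pax5, Vpreb1 and Igll1 are not among the genes listed in the table. Of the 4 markers measured, the immunoglobulin genes Ighm and Igkc and the joining chain Jchain rose, and 0 fell. Of all genes, 2.10% passed as higher. The 4 summed to between 295 and 357 CPM in cKO and between 181 and 199 CPM in FF, where Ighm gave most of the sum. Igkc and Jchain kept their calls with any 1 library left out, and Ighm lost its call without cKO replicate 2 (adjusted p = 0.0883) or FF replicate 1, 2 or 3 (between 0.0626 and 0.09999). The part of these cells in the values of Ebf1 was not tested.

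The proportions between members within a library were compared on the authors' FPKM, which divides counts by gene length and library size. Ebf3 stood at 0.803, 1.04 and 1.05 times the FPKM of Ebf1 in cKO, against 0.610, 0.712 and 0.650 times in FF. The log2 ratio averaged -0.06 ± 0.22 in cKO and -0.61 ± 0.11 in FF (SD, n = 3 each), a difference of 0.55 (exact two-sided permutation p = 0.1, the smallest that 3 against 3 libraries allow). Ebf1 was thus the more abundant of the pair in all FF libraries and in cKO replicate 1, and Ebf3 slightly so in cKO replicates 2 and 3. The FPKM of Lepr was 0.103, 0.101 and 0.0864 times that of Leprot in cKO, against 0.0722, 0.0759 and 0.0738 times in FF. Leprot encodes a transmembrane protein that limits surface leptin receptor, and it lies 58039 bases upstream of Lepr on the same strand. Its own log2 fold change of 0.07 did not pass (edgeR adjusted p = 0.425), and the log2 ratio differed by 0.38 (exact two-sided permutation p = 0.1). Kitl stood at 0.0299, 0.0318 and 0.0302 times the FPKM of Cxcl12 in cKO, against 0.0332, 0.0350 and 0.0349 times in FF, a log2 difference of -0.17 (exact two-sided permutation p = 0.1).

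**Figure D3:**
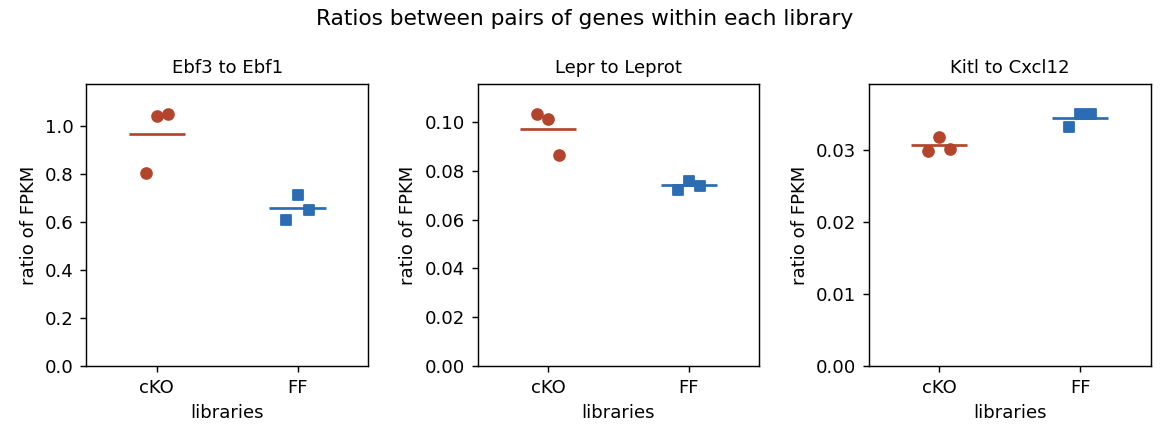
Ratio of FPKM within each library for Ebf3 to Ebf1, Lepr to Leprot and Kitl to Cxcl12; circles are cKO, squares FF and bars the group means, on axes that start at 0. The first and second ratios are higher in every cKO library, and the Kitl to Cxcl12 ratio is lower in every cKO library.

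Per gene length the 9 genes spanned a wide range. Cxcl12 averaged 1751 ± 68.4 FPKM in cKO and 1269 ± 48.2 FPKM in FF (SD, n = 3 each), above 99.9% of genes in cKO and 99.8% in FF. It exceeded Kitl, the second of the 9, by 32.7 times in cKO and by 29.1 times in FF. In cKO the order went on through Kitl at 53.6, Vcam1 at 29.2, Ebf1 at 23.6, Ebf3 at 22.6, Foxc1 at 14.7, Angpt1 at 13.6, Lepr at 7.69 and Il7 at 3.09 FPKM. In FF it was the same order, with Kitl at 43.6, Vcam1 at 27.5, Ebf1 at 26.1, Ebf3 at 17.1, Foxc1 at 12.7, Angpt1 at 10.1, Lepr at 5.63 and Il7 at 2.32 FPKM. The ranges of neighbours in that order overlapped in cKO for Ebf1 with Ebf3 and for Foxc1 with Angpt1, and no neighbours overlapped in FF. Lepr thus lay above 44.2% of genes in cKO and 34.9% in FF.

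**Figure D4:**
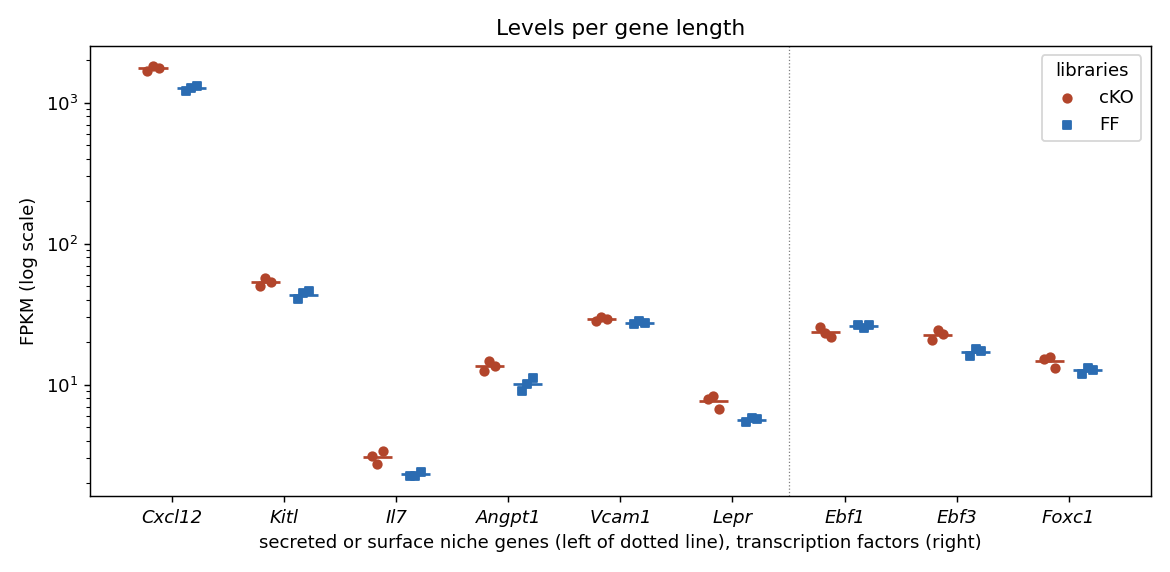
The authors' FPKM of the 9 niche genes in each library on a logarithmic axis, with circles for cKO, squares for FF and bars for group means. Cxcl12 stands far above the others and Il7 is lowest in both groups.

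Of 8 measured genes for receptors of these ligands 1 rose and 0 fell, where 2.10% of all genes passed as higher. Their median log2 fold change was 0.04. DESeq2 called 1 lower, limma-voom called 0, and 1 was lower at an unadjusted p below 0.05, where 8.81% of all genes were lower. Il7r, the Il7 receptor chain, averaged 11.4 ± 0.791 CPM in cKO and 8.21 ± 0.785 CPM in FF (SD, n = 3 each; edgeR adjusted p = 0.0287). Its call ended without cKO replicates 2 and 3 (adjusted p = 0.0640 and 0.125) and without FF replicates 2 and 3 (0.120 and 0.119). Cxcr4 averaged 52.2 ± 1.60 CPM in cKO and 49.4 ± 1.78 CPM in FF and did not pass (edgeR adjusted p = 0.536). Kit averaged 6.41 ± 1.60 CPM in cKO and 9.30 ± 0.826 CPM in FF, with every cKO library below every FF library. It also missed the threshold (edgeR adjusted p = 0.106), but was the receptor gene lower at the unadjusted cut and by DESeq2. Without cKO replicate 1 edgeR called Kit lower (adjusted p = 0.0424). Tek, the receptor of Angpt1, is not among the genes listed.

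A list of 10 genes around leptin receptor signalling also held Leprot and Leprotl1. Of the 10, 0 rose and 1 fell in the edgeR test, where 2.74% of all genes passed as lower. Their median log2 fold change was 0.03. At an unadjusted p below 0.05, 1 was higher and 2 were lower, where 8.54% of all genes were higher and 8.81% lower. DESeq2 and limma-voom called 0 of the 10 higher. DESeq2 called 1 lower and limma-voom 0. Socs3, a feedback inhibitor that leptin induces, had 35.0 ± 3.44 CPM in cKO and 30.7 ± 0.257 CPM in FF and did not pass (edgeR adjusted p = 0.186). The call was Irs1, an insulin receptor substrate, at a log2 fold change of -0.24 by edgeR (adjusted p = 0.0198). It was lost without cKO replicate 2 (0.0921), without cKO replicate 3 (0.0905) and without FF replicates 1, 2 and 3 (0.0526, 0.104 and 0.0821), and also with limma-voom.

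Other secreted niche factors rose in part. Of 14 measured, 3 rose and 0 fell, where 2.10% of all genes passed as higher, and the median log2 fold change was 0.12. Bmp4, a bone morphogenetic protein, averaged 92.7 ± 3.73 CPM in cKO and 66.95 ± 2.80 CPM in FF (edgeR adjusted p = 0.000131). Grem1, a BMP antagonist, and Igf1, a growth factor, had log2 fold changes of 0.43 and 0.30 (edgeR adjusted p = 0.000760 and 0.00949). Igf1 lost its call when cKO replicate 2 (adjusted p = 0.0691) or FF replicate 2 (0.0682) was left out, and Spp1 gained one without cKO replicate 1 (0.0118). Csf1, the macrophage growth factor, averaged 460 ± 19.1 CPM in cKO and 467 ± 14.1 CPM in FF (edgeR adjusted p = 0.875). Tnfsf11, the osteoclast factor RANKL, averaged 2.30 ± 0.646 CPM in cKO and 1.15 ± 0.390 CPM in FF and did not pass (edgeR adjusted p = 0.0914).

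Of 22 measured genes listed as markers of the same stroma, 8 rose and 0 fell, where 2.10% of all genes passed as higher. The median log2 fold change of the 22 was 0.10. The part of other cells in their values was not tested. Adipoq, the adiponectin gene, and Esm1, which encodes a secreted proteoglycan, had log2 fold changes of 0.95 and 0.73. Chrdl1, a BMP antagonist, Ccn5, a matricellular protein, and Tmem176b, which encodes a membrane protein, had 0.46, 0.34 and 0.26. These 5 stayed past the threshold with any 1 library left out, the highest adjusted p being 0.0498 for Chrdl1. Trf, the transferrin gene, lost its call without FF replicate 1 or 3 (adjusted p = 0.0526 and 0.0550). Kng1 and Tmem176a lost theirs without cKO replicate 2 (0.0777 and 0.109), cKO replicate 3 (0.104 and 0.146), FF replicate 2 (0.135 and 0.195) and FF replicate 3 (0.0873 and 0.107). Without FF replicate 3, 5 of the 22 were called, and DESeq2 called 9 and limma-voom 6. Of the markers that did not pass, Pdgfra averaged 98.7 ± 3.22 CPM in cKO and 101 ± 2.996 CPM in FF, and Gas6 averaged 1137 ± 91.2 CPM in cKO and 1129 ± 25.3 CPM in FF.

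Among 14 other stromal transcription factors 0 rose and 3 fell, where 2.74% of all genes passed as lower. The median log2 fold change was -0.07. At an unadjusted p below 0.05, 0 were higher, where 8.54% of all genes were. DESeq2 and limma-voom called 0 of the 14 higher, while limma-voom called 2 lower. Klf4, a zinc-finger factor, fell by 0.61 on the log2 scale, to 27.3 ± 2.29 CPM in cKO, against 41.6 ± 1.34 CPM in FF (SD, n = 3 each; edgeR adjusted p = 0.000193). Prrx2 and Snai2, factors of early mesenchyme, fell by 0.41 and 0.24 on the log2 scale (edgeR adjusted p = 0.0151 and 0.0230). Both lost their calls without cKO replicate 2 (adjusted p = 0.0606 and 0.0907) and cKO replicate 3 (0.0728 and 0.117). Prrx2 also lost it without FF replicate 2 (0.102), and Snai2 without FF replicates 1 and 3 (0.0517 and 0.121). Ebf2, the third Ebf gene in the table, averaged 9.16 ± 1.66 CPM in cKO and 7.55 ± 0.611 CPM in FF and did not pass (edgeR adjusted p = 0.330). The adipogenic factors Cebpa and Pparg stood at 0.05 and 0.02 on the log2 scale, neither passing (edgeR adjusted p = 0.661 and 0.935).

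**Figure D5:**
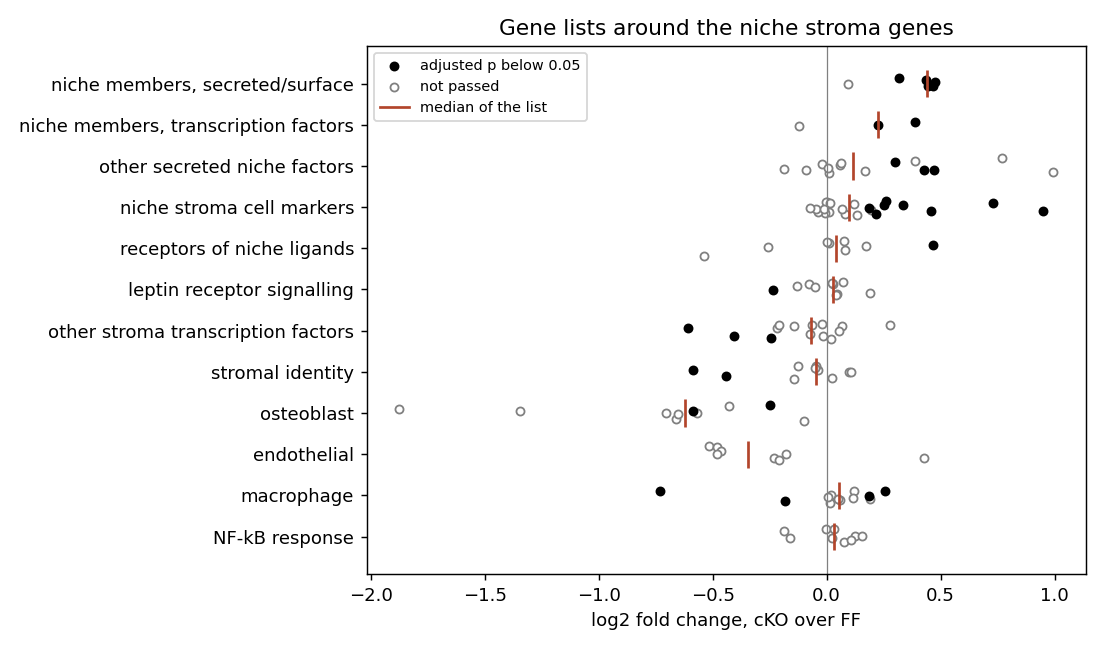
Log2 fold change of cKO over FF for every measured gene of each list, with filled points for an adjusted p below 0.05 and a vertical bar at the median of each list. Filled points lie right of 0 in the niche lists, with 5, 2, 3 and 8 rises, and left of 0 in the stroma transcription factor, stromal identity and osteoblast lists, with 3, 2 and 2 falls. The receptor list holds 1 rise, the leptin receptor list 1 fall, and the macrophage list 2 rises and 2 falls. The endothelial and NF-kB lists hold 0 filled points. Col1a1 is among the falls of both the stromal identity and the osteoblast list.

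Marker genes of other cells are given beside the niche genes. The 10 osteoblast genes summed to between 6619 and 8509 CPM in cKO and between 10980 and 11830 CPM in FF, with a median log2 fold change of -0.62. Of the 10, the bone transcription factor Runx2 and the collagen gene Col1a1 fell in the edgeR test, and 0 rose. Of all genes, 2.10% passed as higher and 2.74% as lower. The falls numbered 7 without cKO replicate 1, 5 without cKO replicate 3, 1 without cKO replicate 2 or FF replicate 3, and 7 by DESeq2 and by limma-voom. Runx2 lost its call without cKO replicate 2 (adjusted p = 0.0539), cKO replicate 3 (0.0632) or FF replicate 3 (0.0740), so the 5 without cKO replicate 3 do not hold it. The 10 stromal identity genes, 2 of them collagen chains that fell, summed to between 11650 and 13720 CPM in cKO and between 16750 and 17950 CPM in FF. Most of that sum was Col1a1 and Col1a2, which averaged 5427 and 4949 CPM in cKO and 8159 and 6717 CPM in FF. No other stromal identity gene passed in the edgeR test. At an unadjusted p below 0.05, 4 of the 10 were lower, where 8.81% of all genes were. Col1a1 is in the osteoblast list too and gives most of its sum. Of the 12 macrophage genes Tyrobp and Mrc1 rose and Cd14 and Vsig4 fell. Without cKO replicate 2, cKO replicate 3 or FF replicate 2 the rises numbered 0, and Vsig4 alone kept its call in every removal. Without cKO replicate 1 the rises numbered 3, with Fcer1g gaining a call (adjusted p = 0.00214). DESeq2 called 3 macrophage genes higher and 2 lower, and limma-voom 1 higher and 2 lower. At an unadjusted p below 0.05, 4 were higher and 2 lower, where 8.54% of all genes were higher and 8.81% lower. Lyz2 averaged 17130 ± 268 CPM in cKO and 15800 ± 654 CPM in FF. Vcam1 is also known from macrophages and endothelial cells. The 8 endothelial markers summed to between 31.6 and 41.4 CPM in cKO and between 35.4 and 50.9 CPM in FF, and the 9 NF-kB response genes to between 371 and 391 CPM in cKO and between 358 and 384 CPM in FF. In the edgeR test 0 of either list passed. At an unadjusted p below 0.05, 2 endothelial genes were lower and 1 NF-kB gene was higher, and DESeq2 and limma-voom called 0 of either. Of all genes, 8.81% were lower and 8.54% higher at that cut. Of 8 osteoclast genes 1 rose and 0 fell. The riser was Atp6v0d2, a proton pump subunit, at 150 ± 5.96 CPM in cKO and 108 ± 6.89 CPM in FF (SD, n = 3 each; edgeR adjusted p = 0.000129), which kept its call with any 1 library left out, and Ctsk gained a call without FF replicate 1 (adjusted p = 0.0440). The 8 osteoclast genes summed to between 1319 and 1688 CPM in cKO and between 1090 and 1500 CPM in FF. The 8 neutrophil genes all had negative fold changes, with a median log2 value of -0.22 and sums between 564 and 754 CPM in cKO and between 649.6 and 859 CPM in FF. The 6 megakaryocyte genes summed to between 161 and 210 CPM in cKO and between 149 and 167 CPM in FF. The edgeR test called 0 neutrophil and 0 megakaryocyte genes. At an unadjusted p below 0.05, 1 neutrophil gene was lower and 1 megakaryocyte gene higher, as also by DESeq2, and limma-voom called 0. Mpo was called lower without cKO replicate 2 (adjusted p = 0.0420) and Pf4 higher without cKO replicate 1 (0.000210). The part of other cells in the niche gene values was not tested. In FF replicate 1, the library with high interferon genes, Il7 and Vcam1 had 11.8 and 102 CPM, within the range of the other FF libraries for Vcam1 and just above it for Il7.

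Genes whose pattern over the 6 libraries was most like that of a niche gene were ranked among 10780 genes of at least 5 CPM, by the root mean square difference of log2 CPM centred on each gene's mean. That mean spans both groups, so the distance holds the difference in fold change as well as that between libraries of a group. The ranks carry no test and do not show shared variation within a group. For Cxcl12 the nearest were Bmp4 at 0.0144, Clec7a, a pattern receptor of myeloid cells, at 0.0360, Arhgap28 at 0.04999, Ide at 0.0543 and Cdc42ep2 at 0.0564. Among the other niche genes Angpt1 ranked 9th and Ebf3 11th, whereas Vcam1 ranked 1482nd and Ebf1 8889th. For Ebf3 the nearest were Egfr at 0.0366, Selenbp1 at 0.0380, Cdc42ep2 at 0.0424, Cyp1b1 at 0.0491 and Arhgap28 at 0.0495. Cxcl12 and Kitl ranked 25th and 26th for Ebf3, while Ebf1, its relative with a fold change of the opposite sign, ranked 9039th.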

How the data were processed

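Bulk RNA of 3 cKO and 3 FF libraries was compared. A kit that marks strand was used on total RNA, per the labels' protocols, and mm10 is the build in the submitters' processing notes. Which aligner, counter, strand setting and test the authors used is not given in the sources used here. Deposited values included gene counts that were not normalized, per the file headers, and held genes with a mean of at least 22.3 counts per library. It also gave FPKM per gene and library, per the file headers, and the authors' log2 fold change, p-value and adjusted p-value, per the file headers.

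The count test was edgeR 4.0.16 under R 4.3.3 (TMM, filterByExpr, robust quasi-likelihood F test, group only), with Benjamini-Hochberg adjustment over all 12830 genes and a threshold of 0.05. The filter removed no gene. The procedure was tested on simulated data, but its recovery of rises as small as those of the members is not given here. The standard error is the log2 fold change divided by the square root of F, and 95% intervals are unadjusted. Ratios of FPKM were tested with exact permutation in SciPy 1.17.1. Coordinates are from GENCODE M21, which matched 12611 of the row identifiers. The named genes are all 9 members, called genes of the marker lists or, where none was called, the most abundant, and for Cxcl12 and Ebf3 the 5 genes most like each. Other list genes named with values, among them Kit, Cxcr4, Socs3, Csf1, Tnfsf11, Ebf2, Cebpa, Pparg, Pdgfra, Gas6, Lyz2, Ctsk, Mpo and Pf4, were chosen after their values were seen. Members and lists were chosen with earlier results of these data known. Alternatives were other scalings and filters, DESeq2 1.42.0, limma-voom (limma 3.58.1), the replicate number as a block, removal of immunoglobulin genes and each library left out. Every pair of libraries differed by more than sampling noise. Figures were drawn with matplotlib 3.10.9.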

Additional observations from a re-analysis of the deposited data

How the results depend on the processing

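In all, 621 genes were called over the table, and between 268 (without FF replicate 2) and 1166 (without cKO replicate 1) with 1 library left out, against 848 by DESeq2 and 434 by limma-voom. Among the 9 members 7 were called higher with all libraries and between 5 and 6 in the removals, and 5 by limma-voom. The members called lower numbered 0, and between 0 and 1 in the removals, the 1 being Ebf1 without cKO replicate 1. Cxcl12, Lepr, Angpt1, Kitl and Ebf3 kept their calls under all 15 alternatives, and no member reversed its direction under any of them. The order of the rises did not hold: Lepr was at 0.54 and Cxcl12 at 0.46 without cKO replicate 3. Scaling by RLE, by upper quartile or by library totals moved the median of all genes by between -0.0012 and 0.0007 on the log2 scale and changed no member's call. The 3 differences in log2 ratio kept their signs: 0.48 to 0.67 for Ebf3 to Ebf1, 0.34 to 0.47 for Lepr to Leprot and -0.19 to -0.15 for Kitl to Cxcl12 with 1 library left out, and 0.51, 0.39 and -0.16 on counts. Replicate numbers of the groups did not pair the libraries, since deviations of same-numbered libraries correlated at -0.0359, 0.0913 and -0.0985. A replicate block gave 669 called genes over the table and 7 members higher, and with it the log2 ratio differences by pair were 0.55, 0.38 and -0.17 (exact permutation p = 0.25, the smallest that 3 pairs allow). With 2 against 3 libraries the smallest exact p is 0.2, so those removals say nothing of the ratios' significance. Il7 rests on between 376 and 625 counts per library, the lowest depth among the members.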
